A study of Mus musculus with 18 samples.

Results

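Silencing of Mk5 was followed here in C2C12 myotubes kept in medium with BSA, as the 3 siMk5 BSA libraries against the 3 siNtc BSA libraries, which are 6 of the 18 libraries of the series. Genes enter the comparison when their counts summed over all 18 libraries reach 10, as 21772 of 55414 did. C2C12 is an established mouse line of myoblasts that fuse into myotubes when serum is lowered. In both groups the confluent myoblasts received siRNA, either a non-targeting control (siNtc) or a pool of siRNAs against Mk5 (siMk5), were differentiated for 6 days and then held for 16 h without serum but with BSA, the vehicle of palmitic acid. The series also holds siErk3 in BSA and all 3 siRNAs with 0.5 mM palmitic acid (PA), with 3 libraries per group. All libraries come from one cell line, and the labels do not say whether those of a group are separate cultures, so the p-values measure the spread between these libraries, which may be technical.

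Mk5, the product of Mapkapk5, is a protein kinase that binds the atypical MAP kinase Erk3, the product of Mapk6. Binding in this complex protects Erk3 from rapid degradation. Myotubes are long multinucleated cells filled with sarcomeres, in which myosin heavy and light chains pull on actin filaments under the control of troponins, and calcium for contraction is held in the sarcoplasmic reticulum. Fast glycolytic and slow oxidative muscle fibers use different genes for many of these parts.

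The libraries held between 13041979 and 23615343 counted read pairs in siNtc BSA and between 19890880 and 23383590 in siMk5 BSA. Rn18s-rs5, the gene of 18S ribosomal RNA, took a share of 2.56%, 7.17% and 5.64% of counts in the siNtc libraries and 10.8%, 12.9% and 8.39% in the siMk5 libraries. The groups did not overlap, with a difference of 5.56 percentage points (two-sided exact permutation test, p = 0.1, the smallest that 3 against 3 libraries can give), and the other 12 libraries of the series lay between 1.5% and 6.77%. The 9 myotube markers were all present, with a summed level of 13952 to 14650 CPM (read pairs scaled to TMM-normalized library size) in siNtc and 12637 to 14541 CPM in siMk5. Markers of undifferentiated myoblasts summed to 867, 848 and 882 CPM in siNtc and to 887, 923 and 897 CPM in siMk5, so that these groups did not overlap, although without TMM scaling they did, at 862 to 946 CPM and 865 to 874 CPM. Markers of fibroblasts summed to 7484 to 8172 CPM in siNtc and 7224 to 9289 CPM in siMk5. Cardiomyocyte markers summed to 12.5 to 15.5 CPM in siNtc and 19.4 to 19.8 CPM in siMk5, nearly all of it from Myh6, which is described with the changed genes. Endothelial markers summed to at most 0.829 CPM in any of the 6 libraries, and Adipoq, Plin1, Cidec, Adgre1, Ptprc, Kdr and Sox10 had no count. The part of other cells in the results was not tested. In such bulk samples, fewer myotubes and less RNA of a gene per myotube cannot be told apart.

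Mapkapk5 itself (chromosome 5, 121663101 to 121683968, GRCm39) was measured thinly, with 27 to 61 counts per library. Its TMM-normalized level was 2.53, 2.54 and 2.32 CPM in siNtc and 1.18, 2.01 and 1.7 CPM in siMk5. All siMk5 libraries lay below all siNtc libraries, but the log2 fold change of -0.61 ± 0.21 did not pass the test over all genes (SE, FDR = 0.469 by edgeR). Of its exonic bases, 56.4% also belong to the gene Gm42878 on the same strand, and read pairs falling there are assigned to neither gene. Mapk6, its partner, was at 135, 129 and 133 CPM in siNtc and at 136, 135 and 137 CPM in siMk5, a log2 fold change of 0.04 ± 0.06 (SE, FDR = 0.926 from edgeR).

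Judged by an FDR below 0.05 and a change of over 1.3-fold up or down, 14 genes changed with siMk5 in BSA, which is 0.0643% of the genes tested. Of these, 3 rose (0.0138%) and 11 fell (0.0505%). Those that fell were Mb, Trdn, Mss51, Tcap, Hspb7, Mybpc1, Myot, Padi4, Asprv1, Doc2g and the lncRNA Gm38403. The 2 protein-coding genes that rose, Myh7 and Myh6, encode the slow and cardiac myosin heavy chains.

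**Figure D1:**
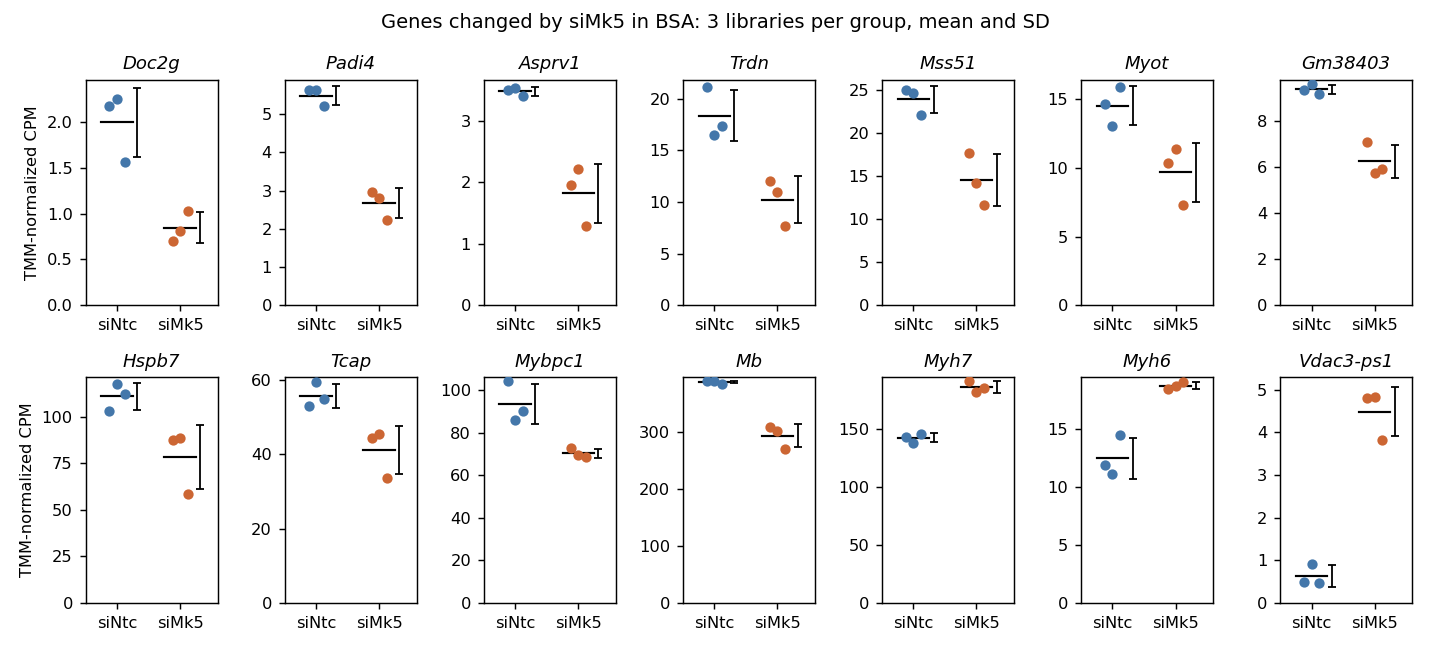
Level of each of the 14 changed genes in TMM-normalized CPM (y axis, from 0), with 1 point per library for siNtc BSA and siMk5 BSA, a bar at the mean and the SD beside it. The third siMk5 point is the lowest of its group for Mb, Trdn, Mss51, Tcap and Hspb7.

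The gene with the smallest FDR was Mb, which encodes myoglobin, the oxygen store of muscle (chromosome 15, 76899687 to 76934870). Its level was 388, 388 and 384 CPM in siNtc and 309, 301 and 270 CPM in siMk5. The siNtc libraries were nearly equal and every siMk5 library lay well below them, with a log2 fold change of -0.40 ± 0.05 (SE, edgeR FDR = 4.16e-05). Trdn encodes triadin, which anchors calsequestrin to the calcium release channel (chromosome 10, 32956550 to 33352705). It was at 21.1, 16.5 and 17.4 CPM in siNtc and at 12.04, 10.9 and 7.69 CPM in siMk5, a log2 fold change of -0.82 ± 0.11 (SE, edgeR FDR = 0.000131). Mss51, a muscle gene whose product is found at mitochondria (chromosome 14, 20532935 to 20546969), was at 25.1, 24.7 and 22.2 CPM in siNtc and at 17.7, 14.2 and 11.7 CPM in siMk5. Its log2 fold change was -0.71 ± 0.1 (SE, edgeR FDR = 0.000194). Trdn and Mss51 stayed changed in each of the 11 other model settings and with each of the 6 libraries left out.

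Of the sarcomere genes, Tcap encodes telethonin, which caps titin at the Z-disc (chromosome 11, 98274637 to 98275779). It was at 53.1, 59.4 and 54.8 CPM in siNtc and at 44.4, 45.4 and 33.7 CPM in siMk5, a log2 fold change of -0.44 ± 0.08 (SE, edgeR FDR = 0.00828). Mybpc1, the slow myosin binding protein C (chromosome 10, 88354141 to 88441014), was at 104, 86.3 and 90.5 CPM in siNtc and at 72.8, 69.4 and 68.7 CPM in siMk5, a log2 fold change of -0.41 ± 0.06 (SE, edgeR FDR = 0.000275). Myot, which encodes the Z-disc protein myotilin, was at 14.7, 13.04 and 15.9 CPM in siNtc and at 10.3, 11.4 and 7.27 CPM in siMk5, a log2 fold change of -0.58 ± 0.11 (SE, edgeR FDR = 0.0247). Hspb7, a small heat shock protein of striated muscle that binds filamin C (chromosome 4, 141148090 to 141152622), fell in the same way. Its level was 103, 118 and 112 CPM in siNtc and 87.8, 88.8 and 58.5 CPM in siMk5, a log2 fold change of -0.50 ± 0.09 (SE, edgeR FDR = 0.00828). In all 4 genes the third siMk5 library was the lowest of the 6. Tcap, Mybpc1, Myot and Hspb7 kept their call in 4, 5, 3 and 3 of the 6 fits that left out 1 library.

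The upstream sequences of 4 of the muscle genes that moved are shown, 3 that went down and 1 that went up. Each is the 250 bases before the start of the Ensembl canonical transcript of GENCODE M39 in GRCm39, read 5′ to 3′ on the strand of the gene, with capitals for matches to CANNTG, the E-box letters that myogenic factors such as MyoD can bind. The windows lie at chr15:76906988-76907237 (minus strand) for Mb, chr10:32956300-32956549 (plus) for Trdn, chr11:98274387-98274636 (plus) for Tcap and chr14:55232084-55232333 (minus) for Myh7.
Mb: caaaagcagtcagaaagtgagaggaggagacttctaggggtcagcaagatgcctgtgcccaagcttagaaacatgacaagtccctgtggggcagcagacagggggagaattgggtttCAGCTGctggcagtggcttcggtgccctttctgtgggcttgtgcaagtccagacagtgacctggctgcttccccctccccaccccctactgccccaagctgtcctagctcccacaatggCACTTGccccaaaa
Trdn: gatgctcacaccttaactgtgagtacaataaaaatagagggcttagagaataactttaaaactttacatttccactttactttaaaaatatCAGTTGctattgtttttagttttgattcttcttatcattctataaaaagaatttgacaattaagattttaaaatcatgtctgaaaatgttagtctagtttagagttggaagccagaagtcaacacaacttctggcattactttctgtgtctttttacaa
Tcap: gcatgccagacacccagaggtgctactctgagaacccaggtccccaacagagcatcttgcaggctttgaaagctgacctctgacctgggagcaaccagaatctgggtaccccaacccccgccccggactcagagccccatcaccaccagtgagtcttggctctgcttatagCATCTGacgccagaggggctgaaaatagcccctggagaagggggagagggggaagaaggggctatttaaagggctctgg
Myh7: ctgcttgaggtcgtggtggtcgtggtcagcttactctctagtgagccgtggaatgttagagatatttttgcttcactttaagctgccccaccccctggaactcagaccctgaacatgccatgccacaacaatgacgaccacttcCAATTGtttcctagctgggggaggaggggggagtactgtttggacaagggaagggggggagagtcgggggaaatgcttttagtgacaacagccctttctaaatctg

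CANNTG, which reads the same on both strands, occurred in the windows of 8 of the 11 changed protein-coding genes searched and in 61.3% of the windows of all 14994 protein-coding genes searched. Mss51, Mybpc1 and Padi4 had no match, so the windows printed above, which all hold one, do not stand for the 11. The narrower form CAGCTG, which is contained in CANNTG, was found in 1 of the 11, Mb, and in 11.8% of all windows. The MEF2 and CArG box motifs had no match in the 11 windows and occurred in 0.494% and 1.19% of all windows. These matches describe letters in a short window only.

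The other 4 genes that fell were low. Padi4, a peptidylarginine deiminase (chromosome 4, 140473176 to 140501547), was at 5.62, 5.63 and 5.2 CPM in siNtc and at 2.97, 2.82 and 2.22 CPM in siMk5, a log2 fold change of -1.03 ± 0.19 (SE, edgeR FDR = 0.01). The aspartic protease gene Asprv1 (chromosome 6, 86605146 to 86606692) was at 3.51, 3.54 and 3.4 CPM in siNtc and at 1.96, 2.21 and 1.29 CPM in siMk5, with a log2 fold change of -0.93 (edgeR FDR = 0.0247). Doc2g, of the double C2 family (chromosome 19, 4053313 to 4057005), had 16 to 54 counts per library, shares 63.5% of its exonic bases with Gm49405, and was at 2.18, 2.25 and 1.56 CPM in siNtc and at 0.698, 0.805 and 1.03 CPM in siMk5 (log2 fold change -1.24, edgeR FDR = 0.0385). The lncRNA Gm38403 (chromosome 10, 118756286 to 118763048) was at 9.34, 9.58 and 9.17 CPM in siNtc and at 7.06, 5.74 and 5.93 CPM in siMk5 (log2 fold change -0.58, edgeR FDR = 0.01). Padi4, Asprv1, Doc2g and Gm38403 kept their call in 2, 2, 1 and 3 of the 6 fits that left out 1 library.

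Among the genes that rose, Myh7, the slow myosin heavy chain of type I fibers (chromosome 14, 55208141 to 55232083), was at 143, 139 and 146 CPM in siNtc and at 192, 182 and 185 CPM in siMk5. Its fold change of 1.31 (log2 0.39, standard error 0.05, edgeR FDR = 0.000275) lay just above the criterion. Myh7 kept its call in 4 of the 11 other model settings and in 4 of the 6 fits that left out 1 library. Its neighbor Myh6, the alpha myosin heavy chain of the atrium (chromosome 14, 55179378 to 55204384), was at 11.9, 11.1 and 14.5 CPM in siNtc and at 18.5, 18.7 and 19.04 CPM in siMk5, a log2 fold change of 0.59 ± 0.09 (SE, edgeR FDR = 0.00251). The sequences of both genes are alike and pairs with a mapping quality of 3 were counted, so part of the Myh6 counts may be shared with Myh7. Vdac3-ps1 (chromosome 13, 18205326 to 18206178), annotated as a transcribed pseudogene of the mitochondrial channel gene Vdac3, had the largest change of the 14, from 0.492, 0.917 and 0.473 CPM in siNtc to 4.8, 4.83 and 3.82 CPM in siMk5. Its log2 fold change was 2.77 ± 0.35 (SE, edgeR FDR = 0.00013), and it stayed changed with each of the 6 libraries left out and in the 10 other model settings that kept it among the genes tested. The level of Vdac3, chosen after its values were seen, was 106 ± 1.56 CPM (SD, n = 3) in siNtc and 102 ± 0.93 CPM (SD, n = 3) in siMk5 (log2 fold change -0.05, edgeR FDR = 0.84).

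A further 4 genes passed the FDR alone, with fold changes below the criterion, and all were lower. Tnnc2, the fast troponin C, was at 534, 537 and 533 CPM in siNtc and at 460, 448 and 389 CPM in siMk5 (log2 fold change -0.31, edgeR FDR = 0.00318). Myl1, the fast essential myosin light chain, was at 1711, 1597 and 1539 CPM in siNtc and at 1383, 1393 and 1195 CPM in siMk5 (log2 fold change -0.29, edgeR FDR = 0.00828). Mapk12, which encodes the p38 gamma kinase of muscle, had a log2 fold change of -0.34 (edgeR FDR = 0.0247), and Vamp5, a vesicle protein of muscle and chosen after its values were seen, one of -0.28 (edgeR FDR = 0.00828).

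Beyond single genes, the genes of fast glycolytic fibers were lower as a list. Of its 28 members, 25 had a log2 fold change below 0 and the median was -0.16, against a median of 0.01 and 45.5% below 0 over all genes tested. None of the 28 was called changed, but Casq1 was when only the 6 libraries compared were fitted (log2 fold change -0.46, edgeR FDR = 0.00597). Tnnc2 was called with the 18S share as a covariate (log2 fold change -0.39, edgeR FDR = 0.0168). In 16 of the 28 members (57.1%) all siMk5 libraries lay below all siNtc libraries and in 1 above, while this was so for 5.02% and 7.3% of all genes. Of the 23 members with a mean of at least 10 CPM, 12 lay wholly below, against 4.91% of all genes at that level (10.5% wholly above). Beside Tnnc2 and Myl1, the member with the smallest p was Casq1, the calsequestrin of fast fibers, at 93.0, 80.4 and 82.4 CPM in siNtc and 70.2, 68.5 and 48.9 CPM in siMk5 (log2 fold change -0.44, edgeR FDR = 0.0852). Myh1, the fast type IIx myosin heavy chain, went from 1067, 1024 and 1038 CPM to 924, 921 and 735 CPM (log2 fold change -0.28, edgeR FDR = 0.0948), and Mylpf, the fast regulatory light chain and the highest member by CPM, from 2846, 2763 and 2706 CPM to 2557, 2466 and 2160 CPM (log2 fold change -0.21, edgeR FDR = 0.105).

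**Figure D2:**
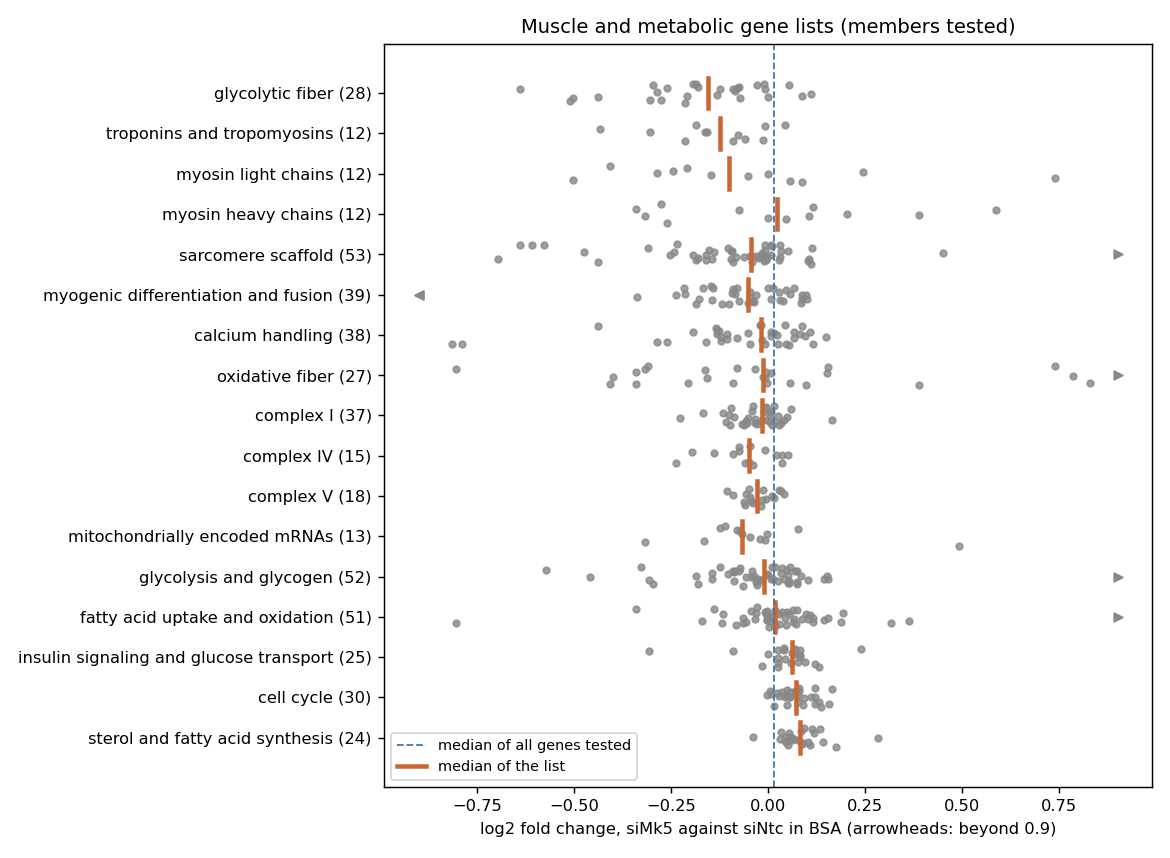
Log2 fold change of siMk5 against siNtc in BSA (x axis) for the tested members of 17 lists, 1 gray point per gene, with an orange bar at the median of the list and a dashed line at the median of all genes; arrowheads mark members beyond 0.9. The medians of the glycolytic fiber, troponin and myosin light chain lists lie at -0.16, -0.13 and -0.10, and those of the sterol synthesis, cell cycle and insulin lists at 0.08, 0.07 and 0.06.

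Troponins and tropomyosins were below 0 in 11 of 12 members (median -0.13, and -0.16 to -0.07 with each library left out), with 5 wholly below and 0 wholly above. Tnni2 and Tnnt3, the fast troponins I and T, had log2 fold changes of -0.21 and -0.19 (edgeR FDR = 0.16 and 0.196), and Tpm1, the member with the highest CPM, one of -0.01. Of the 12 myosin light chains and binding proteins 8 were below 0 (median -0.10, and -0.22 to -0.03 with each library left out), with 5 wholly below and 1 wholly above, and Mybpc1 was the 1 called changed. The sarcomere scaffold list was below 0 in 39 of 53 members (median -0.04, -0.10 to -0.02 with each library left out and -0.12 with the 18S share as a covariate), with 12 wholly below (22.6%) and 4 wholly above (7.55%), against 5.02% and 7.3% of all genes. Tcap and Myot were its called members, and Myoz2, a Z-disc protein of slow fibers, went from 126, 131 and 128 CPM to 114, 111 and 84.1 CPM (log2 fold change -0.31, edgeR FDR = 0.0852). Titin (Ttn) was at 4341, 4117 and 4362 CPM in siNtc and at 4333, 4031 and 3110 CPM in siMk5, so that 1 siMk5 library overlapped the controls and the third was far below (log2 fold change -0.16, edgeR FDR = 0.791).

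The myosin heavy chains split in direction. Of 12 members, 6 were below and 6 above 0, with 4 wholly below (33.3%), 3 wholly above (25%) and a median of 0.02. Over all genes 5.02% lay wholly below and 7.3% wholly above. Myh7 and Myh6 rose, and Myh3, the embryonic chain, had a log2 fold change of 0.12 (edgeR FDR = 0.665). The fast chains Myh1, Myh2 and Myh4 had log2 fold changes of -0.28, -0.34 and -0.26 (edgeR FDR = 0.0948, 0.176 and 0.176). Of these, Myh2 also belongs to the oxidative fiber list described below. Per kb of exon, Myh3 was the highest sarcomeric chain over the 6 libraries with 418 CPM per kb, followed by Myh1 with 149.8, Myh4 with 59.1, Myh8 with 28.3 and Myh7 with 19.1, while Myh6 was at 2.32. Myh2, Myh3, Myh4 and Myh8 were chosen after their values were seen.

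**Figure D3:**
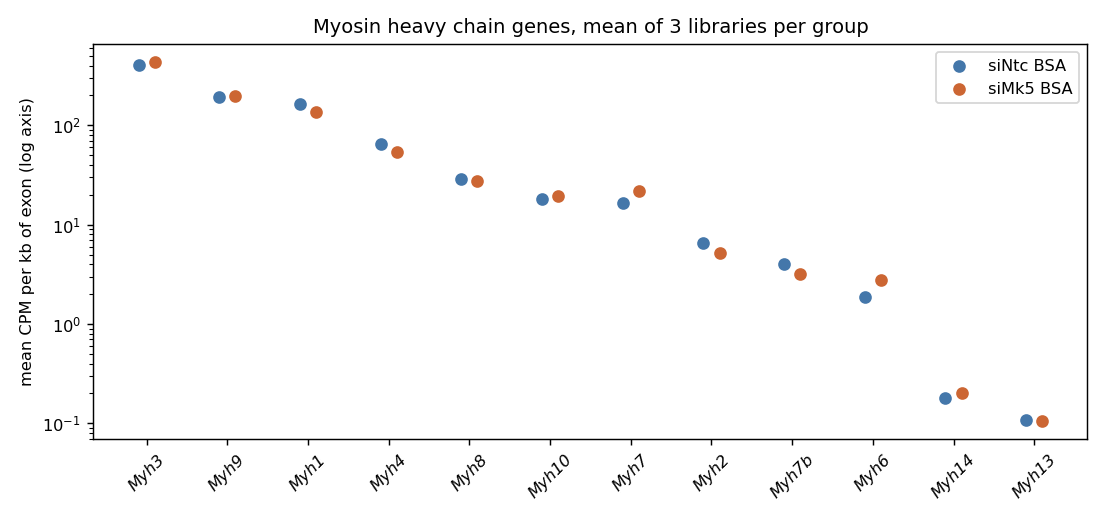
Mean level of the myosin heavy chain genes in CPM per kb of exon (y axis, log scale) in siNtc BSA and siMk5 BSA, each the mean of 3 libraries, ordered by the siNtc level. The pairs of points lie close together on this scale. Averaged over both groups, Myh7 was at 19.1 and Myh6 at 2.32 CPM per kb, each between a lower siNtc and a higher siMk5 point.

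The oxidative fiber list did not move as one. Of its 27 members 17 were below 0 (median -0.01), Mb and Mybpc1 fell and Myh7 rose, and 7 members lay wholly below and 4 wholly above (5.02% and 7.3% of all genes). The median ranged from -0.06 to -0.01 with each library left out and was -0.09 with the 18S share as a covariate. The member with the highest CPM, the slow troponin C gene Tnnc1, had a log2 fold change of -0.09 (edgeR FDR = 0.727). Among the 38 genes of calcium handling 22 were below 0 (median -0.02), 9 wholly below (23.7%) and 3 wholly above (7.89%, near the share of all genes), with Trdn as the called member and the pump gene Atp2a2 at -0.01. The genes of myogenic differentiation and fusion were below 0 in 26 of 39 (median -0.05), with 10 wholly below, 2 wholly above and none called. Mustn1, a small muscle nuclear protein, was lowest in p among them, at 142, 143 and 145 CPM in siNtc and 123, 128 and 89.3 CPM in siMk5 (log2 fold change -0.34, edgeR FDR = 0.0948).

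Genes of the respiratory chain shifted little. In complex I 23 of 37 were below 0 (median -0.02), in complexes II and III 8 of 14 (0.00), in complex IV 11 of 15 (-0.05), in complex V 13 of 18 (-0.03) and among the mRNAs of the mitochondrial genome 11 of 13 (-0.07, but 0.08 with 5 below 0 with the 18S share as a covariate, and -0.10 to -0.01 with each library left out), with no gene called in any of them. With each library left out the median ran from -0.04 to -0.002 in complex I and from -0.04 to 0.03 in complexes II and III. In complex IV it ran from -0.08 to -0.02 and in complex V from -0.06 to -0.01. Ndufs4, an accessory subunit of complex I, had the smallest p, at 66.1, 64.0 and 63.8 CPM in siNtc and 54.6, 57.5 and 53.4 CPM in siMk5 (log2 fold change -0.23, edgeR FDR = 0.113). Cox4i1 and Atp5f1b, the members of complexes IV and V with the highest CPM, had log2 fold changes of -0.05 and -0.02. Genes of glycolysis and glycogen were below 0 in 28 of 52 (median -0.01) and those of fatty acid uptake and oxidation in 19 of 51 (median 0.02). The fatty acid median ranged from -0.0044 to 0.04 with each library left out, with 14 to 27 members below 0. Cpt1a, the entry step of fatty acids into mitochondria, went from 66.7, 75.8 and 78.1 CPM to 81.1, 85.7 and 86.2 CPM (log2 fold change 0.19, edgeR FDR = 0.5), and Cd36, a fatty acid carrier, had a log2 fold change of -0.34 (edgeR FDR = 0.248).

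Other lists leaned upward by small amounts, again with no called gene. Sterol and fatty acid synthesis was above 0 in 23 of 24 members (median 0.08) with 6 wholly above and 0 wholly below, the cell cycle in 29 of 30 (median 0.07, 7 and 0) and insulin signaling and glucose transport in 21 of 25 (median 0.06, 5 and 0). Over all genes 53.9% were above 0 and 7.3% wholly above, and of the genes with a mean of at least 10 CPM 64.6% and 10.5%. With each library left out the sterol median ranged from 0.05 to 0.10 and the insulin median from 0.04 to 0.07. The cell cycle median ranged from 0.05 to 0.09, with 0 to 8 members below 0. Scd2, a desaturase with the highest CPM of the sterol and fatty acid list, went from 1667, 1653 and 1734 CPM to 1752, 1811 and 1917 CPM (log2 fold change 0.12, edgeR FDR = 0.735). Collagens and matrix genes were above 0 in 27 of 32 (median 0.06), with 1 wholly above and 2 wholly below, but their median ranged from -0.0068 to 0.11 with each library left out and was 0.01 with the 18S share as a covariate. In the list of Erk3, Mk5 and other MAP kinase genes 24 of 38 (63.2%) were above 0 (median 0.04). That is near the 64.6% of all genes with a mean of at least 10 CPM. The 45 interferon-stimulated genes had a median of 0.00 with 21 below 0.

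The 18S share moved with the group, so the list levels were read beside it. The mean log2(CPM + 0.5) of the glycolytic fiber list was 7.27, 7.26 and 7.26 in siNtc, where 18S took 2.56%, 7.17% and 5.64% of counts, and 7.12, 7.17 and 6.97 in siMk5, where 18S took 10.8%, 12.9% and 8.39%. Every siMk5 library had a higher share than all other libraries of the series, so a covariate fit cannot tell the share apart from siMk5. Standard errors also grew in it, from 0.047 to 0.068 for Mb and from 0.107 to 0.158 for Trdn. With the 18S share as a covariate the median of the list was -0.22. Of the 14 genes 7 stayed changed in that fit (Mb, Vdac3-ps1, Trdn, Mss51, Myh7, Tcap and Hspb7), and all 14 kept their direction. Hspb7 went from a log2 fold change of -0.50 to -0.80 and Tcap from -0.44 to -0.65. Mybpc1 lost its call and went from -0.41 to -0.26 (edgeR FDR = 0.272). Padi4, Asprv1, Myot, Doc2g, Myh6 and Gm38403 missed the FDR only, at -1.31, -1.22, -0.71, -1.38, 0.63 and -0.58 in that fit. The medians of the cell cycle and sterol synthesis lists became 0.01 and 0.05 there, and that of the mitochondrially encoded mRNAs 0.08. The median of the myosin light chain list was -0.27 in that fit, and that of the interferon-stimulated genes -0.24 with 36 of 45 below 0. In complex I 32 of 37 genes were then below 0 (median -0.07), in complexes II and III 12 of 14 (-0.04) and in complex V 16 of 18 (-0.08). RNAs without a poly(A) tail or kept in the nucleus were above 0 in 15 of 21 (median 0.17, and 0.04 with 10 below 0 with the covariate), with Rn18s-rs5 at a log2 fold change of 1.16 (edgeR FDR = 0.224) and the nuclear RNA Neat1 at 368, 319 and 311 CPM in siNtc and 268, 229 and 215 CPM in siMk5 (log2 fold change -0.48, edgeR FDR = 0.071). Both were called changed when only the 6 libraries compared were fitted (edgeR FDR = 0.000814 and 6.01e-05). With the ribosomal RNA genes removed before scaling, 13 genes were changed, all of them among the 14. Myh7 lost its call there, at a log2 fold change of 0.37. Whether the 18S share has a part in these shifts was not tested beyond this fit and the covariate fit.

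**Figure D4:**
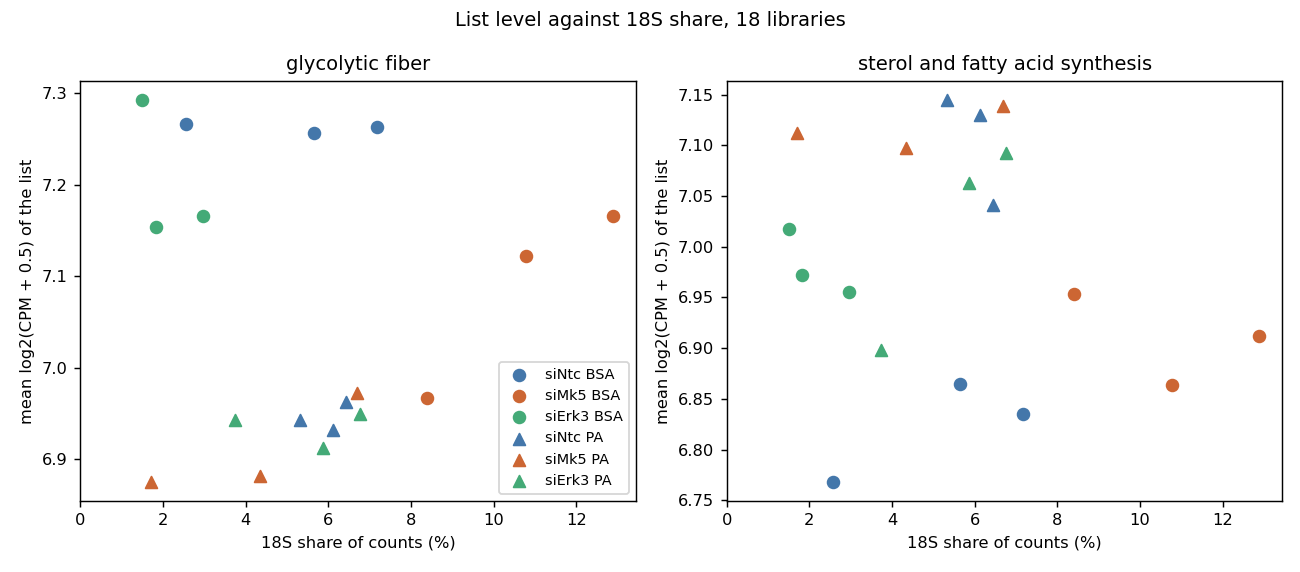
Mean log2(CPM + 0.5) of the glycolytic fiber list and of the sterol and fatty acid synthesis list (y axes) against the share of counts on 18S in percent (x axis), 1 point per library for all 18 libraries, with circles for BSA and triangles for PA. The siMk5 BSA libraries have the highest 18S shares, from 8.39% to 12.9%, and their glycolytic levels lie between 6.97 and 7.17.

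The third siMk5 library was the lowest of the 6 in the glycolytic, troponin, myosin light chain, myosin heavy chain, sarcomere, calcium handling and oxidative lists. In the same library the markers of undifferentiated myoblasts had a mean of 5.51 log2(CPM + 0.5) against 5.25 to 5.46 in siNtc, and those of fibroblasts 4.42 against 4.14 to 4.24. Without it 7 genes were changed, of which 6 were among the 14, and Mb, Tcap, Hspb7, Gm38403, Padi4, Myot, Asprv1 and Doc2g lost their call. Mb and Hspb7 still passed the FDR there, with log2 fold changes of -0.35 and -0.34 that lay under the fold criterion (edgeR FDR = 0.000544 and 0.0364). Doc2g, Padi4 and Gm38403, with log2 fold changes of -1.41, -0.92 and -0.55, did not pass the FDR (0.0662, 0.129 and 0.0937 from edgeR). Nor did Myot and Asprv1, at -0.42 and -0.75 (edgeR FDR = 0.264 and 0.289). Tcap, at -0.32, passed neither criterion (edgeR FDR = 0.0937). The median of the glycolytic list lay between -0.20 and -0.12 with each library left out, and 23 to 25 of its 28 members stayed below 0.

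The same silencing was also measured in PA. Each siMk5 effect was compared with that of its own medium, so the difference (the interaction) contrasts 12 libraries. It called 46 genes (0.211% of those tested), of which 11 were in the list of interferon-stimulated genes and 3 among the 14. Trdn had a log2 fold change of -0.82 in BSA and -0.14 in PA (difference 0.68, standard error 0.15, edgeR FDR = 0.0395), Mss51 -0.71 and -0.06 (difference 0.65, standard error 0.14, edgeR FDR = 0.0368) and Gm38403 -0.58 and 0.26 (difference 0.84, standard error 0.16, edgeR FDR = 0.0101). Mb, with -0.40 and -0.07, passed the FDR (0.0175 from edgeR) but not the fold change (difference 0.33). In siNtc, Mss51 was at 22.2 to 25.1 CPM in BSA and at 12.8 to 13.5 CPM in PA. The PA levels lay within its siMk5 BSA range of 11.7 to 17.7 CPM. Gm38403 was at 9.17 to 9.58 and 4.42 to 4.77 CPM in siNtc, the latter below its siMk5 BSA libraries. For Trdn and Mb the siNtc PA libraries, at 14.5 to 16.9 and 312 to 334 CPM, lay above all siMk5 BSA libraries. The part of the control level in these differences was not tested. Vdac3-ps1 was changed in PA too, with a log2 fold change of 2.31 (edgeR FDR = 8.8e-05), and Myh7 passed the FDR there with one of 0.34, below the fold criterion (edgeR FDR = 0.000243), as did Mybpc1 with one of -0.26 (edgeR FDR = 0.0279). For the remaining genes of the 14 the difference between media was not called. In PA, Vdac3-ps1 was at 5.08, 4.8 and 1.19 CPM with siMk5 and at 0.585, 1.05 and 0.606 CPM with siNtc, so that 1 siMk5 library lay near the controls. The median of the glycolytic list was 0.01 in PA, with 13 of 28 members below 0.

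**Figure D5:**
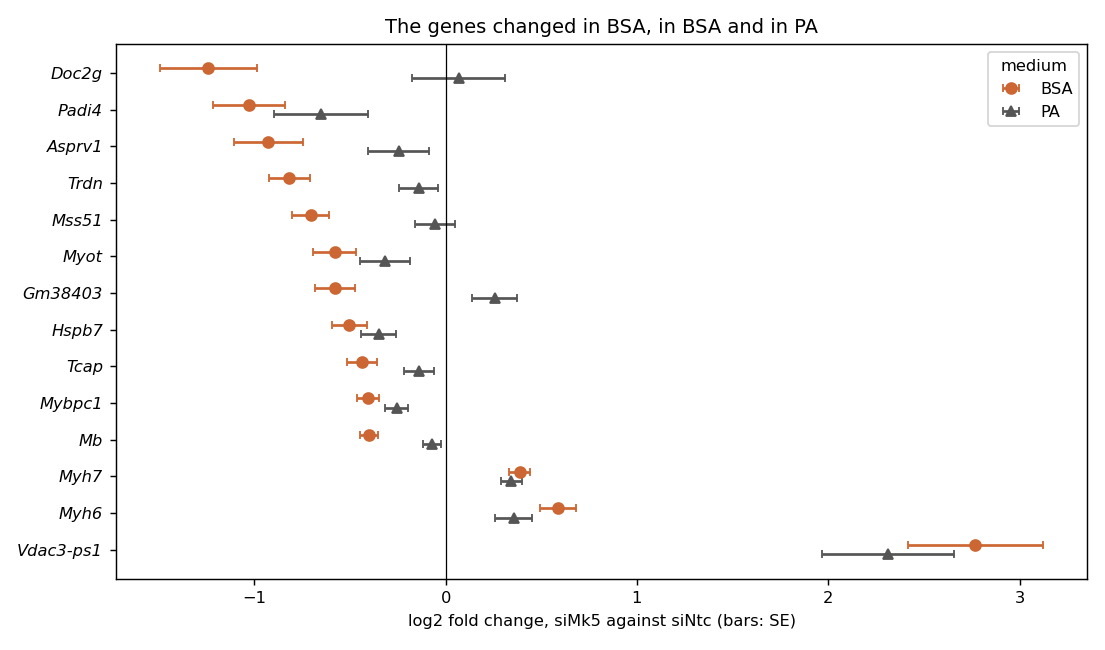
Log2 fold change of siMk5 against siNtc (x axis) with its standard error for the 14 genes changed in BSA, as circles in BSA and triangles in PA. Trdn, Mss51 and Mb lie near 0 in PA, at -0.14, -0.06 and -0.07, and Vdac3-ps1 and Myh7 lie at 2.31 and 0.34.

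Against siErk3 in the same medium, where the shared controls cancel, 128 genes differed (0.588% of those tested), of which 23 were higher with siMk5, and 34 of the 128 were interferon-stimulated genes. Of the 14 genes, 4 differed. Mybpc1 was lower with siMk5 by a log2 difference of -0.87 ± 0.06 (SE, edgeR FDR = 1.21e-11), Myot by -0.63 (edgeR FDR = 0.00101) and Trdn by -0.46 (edgeR FDR = 0.026), and Vdac3-ps1 was higher by 2.93 ± 0.34 (SE, edgeR FDR = 3.57e-06). Against siNtc, Mybpc1 rose with siErk3, by 0.46 on the log2 scale (edgeR FDR = 4.46e-06), where it fell by 0.41 with siMk5. For Myh7 and Myh6 the differences were -0.12 and -0.09 (edgeR FDR = 0.516 and 0.85). With siErk3 against the same siNtc libraries, both rose, by log2 fold changes of 0.51 and 0.68 (edgeR FDR = 6.97e-07 and 2.64e-05). Padi4 and Asprv1 fell there, with -0.73 and -1.28 (edgeR FDR = 0.0275 and 7.0e-05). Mb, at -0.22, passed the FDR only (edgeR FDR = 0.00657). Apart from these and Mybpc1, none of the 14 passed the FDR with siErk3. Rn18s-rs5 was itself among the genes higher with siMk5 than with siErk3, by 2.48 on the log2 scale (edgeR FDR = 3.19e-05), as was Lars2, chosen after its values were seen, by 2.13 (edgeR FDR = 4.24e-05). Against siNtc, both fell with siErk3, with log2 fold changes of -1.32 and -1.38 (edgeR FDR = 0.032 and 0.00675).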

How the data were processed

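The authors deposited raw counts of read pairs, one row per gene, from stranded poly(A)-selected libraries of C2C12 cells. By its header, the table was made by the authors with featureCounts 2.0.0, the Ensembl 105 annotation of GRCm39, strand setting 2, primary alignments and a mapping quality of at least 3, after trimming and alignment with STAR. The submitters' notes name mm10 instead, and the header was followed. Pairs on exons of more than 1 gene of a strand were left unassigned. A second deposited table of normalized values was not used.

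Groups came from the sample labels. The 21772 genes with at least 10 counts over 18 libraries were normalized by TMM and fitted with edgeR 4.0.16 in R 4.3.3, with 1 coefficient per group, and the quasi-likelihood test was adjusted after Benjamini and Hochberg (FDR). The criteria of the methods, an FDR below 0.05 and a fold change above 1.3, were kept. The methods used DESeq2, run here (1.42.0) as an alternative beside other scalings, filters, sets of libraries, an 18S covariate and each library left out. Gene names came from GENCODE M39. Levels are TMM-normalized CPM. The fit was tested on simulated data, but the outcome is not given here and no result rests on it. Precision is lowest where counts are few.

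The comparison and the 29 gene lists were chosen with earlier results of these data known. Named are Mapkapk5, Mapk6, Rn18s-rs5, the changed genes and, per list, the 3 members with the smallest p and the one with the highest CPM. Others are marked, and some genes that this rule names are not reported here. Columns of samples outside the series numbered 0.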

Additional observations from a re-analysis of the deposited data

Results flagged for a closer look

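The effect of siMk5 differed between PA and BSA by the interaction test for 3 of the genes changed in BSA. The log2 fold change in PA minus that in BSA was 0.68 for Trdn, 0.65 for Mss51 and 0.84 for Gm38403. For Mss51 and Gm38403 all siNtc libraries were themselves lower in PA than in BSA.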

How the results depend on the processing

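The count of 14 changed genes became 61 with no filter on low counts, 34 with only the 6 libraries compared and 32 with only the 9 BSA libraries, of which 13 were among the 14 each time, and 6 to 31 with each library left out. It was 6 without siNtc replicate 2, 7 without siMk5 replicate 3, 9 without siNtc replicate 1 and 31 without siMk5 replicate 1. The cause was not tested. Leaving out 1 of the 6 libraries compared cost 2 to 8 of the 14 their call, and all 14 kept their direction in those fits and in the 11 other model settings, except that Vdac3-ps1 was not fitted with at least 10 counts required in every library. Myh7, close to the fold criterion, lost its call in 7 of 11 model settings. With DESeq2 19 genes were changed, all 14 included. The difference between media called 24 to 67 genes with each library left out instead of 46. Same-numbered siNtc and siMk5 libraries deviated together at r = 0.2, 0.18 and 0.0047 across 10553 genes, which are not independent, against a mean of -0.062 for the other pairs. The third pair was under 0.1, so the numbers were not taken to pair the samples. With the replicate block 18 genes were changed, 49 differed between media and 130 between siMk5 and siErk3. Mapkapk5 had a log2 fold change of -0.60 there. The depth limits Mapkapk5, Doc2g and Asprv1, with under 100 counts per library. It also limits Vdac3-ps1, with 7 to 110 counts per library and 39 in total in siNtc BSA.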
